A study of Mus musculus with 4 samples.

Results

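The genes described here encode the extracellular side of Wnt signalling, that is the Wnt ligands, their Frizzled receptors (Fzd), the R-spondins (Rspo), the secreted Frizzled-related proteins (Sfrp) and the Dickkopf proteins (Dkk). They were chosen by gene symbol, as every numbered member of these 5 families with at least 1 probe set annotated to that gene alone, and 41 of the 18194 genes measured met the rule. The 41 genes comprised 19 Wnt, 10 Fzd, 4 Rspo, 4 Sfrp and 4 Dkk genes, with 79 probe sets in all. The brightest probe set on average (mean log2 intensity over the 4 arrays) stands for its gene, and 24 genes had further probe sets, which are given where they bear on a result.

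Expression was measured in cells of chimeric mouse kidneys taken on embryonic day 15.5, dissociated with collagenase and trypsin and sorted by green fluorescent protein (GFP). The 2 arrays of the first group held GFP-positive cells descended from embryonic stem cells that carried GFP and lacked Tfrc, the transferrin receptor gene, and that had been injected into wildtype blastocysts. The 2 arrays of the second group held GFP-negative wildtype cells, the host cells of such kidneys. No array held GFP-positive donor cells with Tfrc intact, so loss of Tfrc and any other difference between donor and host cells cannot be told apart. The number of stem cell clones, the strains, the GFP promoter and any pooling of animals are not given in the sources used here.

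Each value given is a normalised, linear intensity of 1 probe set, as the authors deposited it. The brightest of the 6 Tfrc probe sets read 2509 and 3175 on the arrays labelled Tfrc-null, against 1759 and 2348 on the wildtype arrays. The signal was therefore not lower under the label, and a probe set outside the deleted part of the gene does not check it, so the first group is called labelled Tfrc-null. The control level of an array is its highest signal among 27 bacterial control probe sets, 7.40 and 7.77 on the arrays labelled Tfrc-null and 7.18 and 9.08 on the wildtype arrays. Defining genes of the labelled tissue were above it on all 4 arrays, namely 6 of 6 nephron progenitor, 9 of 9 ureteric bud and 10 of 10 stromal markers measured. Intensities of different probe sets cannot be set against each other, because each probe set has its own brightness.

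Wnt proteins are secreted, lipid-modified ligands that bind Frizzled receptors together with the co-receptors Lrp5 and Lrp6, which stabilises beta-catenin and turns on target genes, or act through other branches that orient cells. R-spondins strengthen the response by keeping Frizzled receptors on the cell surface. Sfrp proteins bind Wnt ligands outside the cell, and Dkk1 blocks the co-receptors. In the developing kidney the ureteric bud, the epithelium that branches to form the collecting ducts, sends Wnt signals to the surrounding nephron progenitors and stroma, while other Wnt ligands come from the forming nephrons and the stroma.

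The 250 bases upstream of the annotated start are shown for 3 genes on which the results below turn, the bud ligands Wnt9b and Wnt11 and the inhibitor Dkk1. The sequences are those of RefSeq on build GRCm38.p6, which had an entry for 27 of the 41 genes, and each is printed 5′ to 3′ on the strand of its gene. Capitals mark matches, on either strand, to the TCF/LEF motif, the DNA word read by the nuclear partners of beta-catenin, searched as CTTTGAA, as CTTTGAT, as CTTTGTA and as CTTTGTT, or to the TATA motif TATAAA.
Wnt9b, chr11:103749822-103750071, minus strand: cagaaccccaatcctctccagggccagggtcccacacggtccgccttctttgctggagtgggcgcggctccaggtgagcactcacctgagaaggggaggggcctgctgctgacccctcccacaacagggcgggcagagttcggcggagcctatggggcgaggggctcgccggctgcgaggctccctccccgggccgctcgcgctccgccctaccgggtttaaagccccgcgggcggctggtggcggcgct
Wnt11, chr7:98834862-98835111, plus strand: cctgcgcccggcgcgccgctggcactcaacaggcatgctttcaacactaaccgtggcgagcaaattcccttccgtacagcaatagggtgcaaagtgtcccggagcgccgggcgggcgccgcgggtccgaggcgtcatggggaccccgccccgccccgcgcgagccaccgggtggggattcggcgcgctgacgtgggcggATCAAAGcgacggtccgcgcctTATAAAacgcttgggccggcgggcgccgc
Dkk1, chr19:30549497-30549746, minus strand: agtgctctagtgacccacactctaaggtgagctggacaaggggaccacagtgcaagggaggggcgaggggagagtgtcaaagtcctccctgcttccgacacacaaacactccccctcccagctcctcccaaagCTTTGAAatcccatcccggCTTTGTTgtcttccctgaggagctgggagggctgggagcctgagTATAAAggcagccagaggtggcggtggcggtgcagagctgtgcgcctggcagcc

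The Dkk1 window held 2 TCF/LEF matches and a TATA match, and the Wnt11 window held 1 of each. The Wnt9b window held neither, which says only that these letters are not in these 250 bases. None of the matches overlapped another. A TCF/LEF match was present in 14.8% of the 32851 promoter windows of the same length in the table and a TATA match in 12.4%. Among the 27 genes with a window, 4 had a TCF/LEF match (Dkk1, Fzd7, Wnt5b and Wnt11) and 4 a TATA match (Dkk1, Dkk2, Fzd1 and Wnt11). Wnt11 and Wnt5b have more than 1 annotated start, and the Wnt11 start furthest upstream is shown.

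Across the 41 genes, by the brightest probe set, the ligand Wnt9b and the receptor Fzd2 stood lower in the cells labelled Tfrc-null. The inhibitors Dkk1 and Dkk3 and the R-spondin Rspo3 stood higher. Further probe sets of Wnt9b and Fzd2 did not show the lower level. None of these genes passed limma's test after adjustment over all genes. At an adjusted p of 0.05, 0 of the 41 genes were called, as were 0% of all 18194 genes, and the lowest adjusted p among the 41 was 0.212, for Wnt9b. At an unadjusted p under 0.05 there were 8 of the 41 (19.5%), 4 higher and 4 lower, beside 8.02% of all genes, of which 4.03% were higher and 3.98% lower. This number depended on the arrays used, and was 3 without labelled Tfrc-null replicate 1 (4.13% of all genes), 4 without labelled Tfrc-null replicate 2 (4.38%), 5 without wildtype replicate 1 (6.88%) and 5 without wildtype replicate 2 (10.5%).

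Groups that did not overlap were seen for 20 of the 41 genes (34.9% of all genes), 14 with both arrays labelled Tfrc-null above both wildtype arrays (20.6%) and 6 with both below (14.3%). The median log2 difference, labelled Tfrc-null minus wildtype, was 0.12 for the 41 genes and 0.04 for all genes. By family the median difference was 0.12 for Wnt, -0.16 for Fzd, 0.19 for Rspo, 0.39 for Sfrp and 0.52 for Dkk genes. The value of 0.12, for the 41 genes and for Wnt genes, is that of Wnt3, which exceeded the control level on no array. All 4 Sfrp and all 4 Dkk genes had a higher mean log2 in the cells labelled Tfrc-null, while 7 of the 10 Fzd genes had a lower one. Over all 18194 genes, 10469 had a higher and 7722 a lower one. These families are small, and Sfrp1 and Dkk4 each differed by only 0.07 with overlap. Wnt9b and Fzd2 were the only 2 of the 41 genes at least 2-fold apart without overlap (2.66% of all genes), both of them lower (1.51%), and 0 were higher by as much (1.15%).

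**Figure D1:**
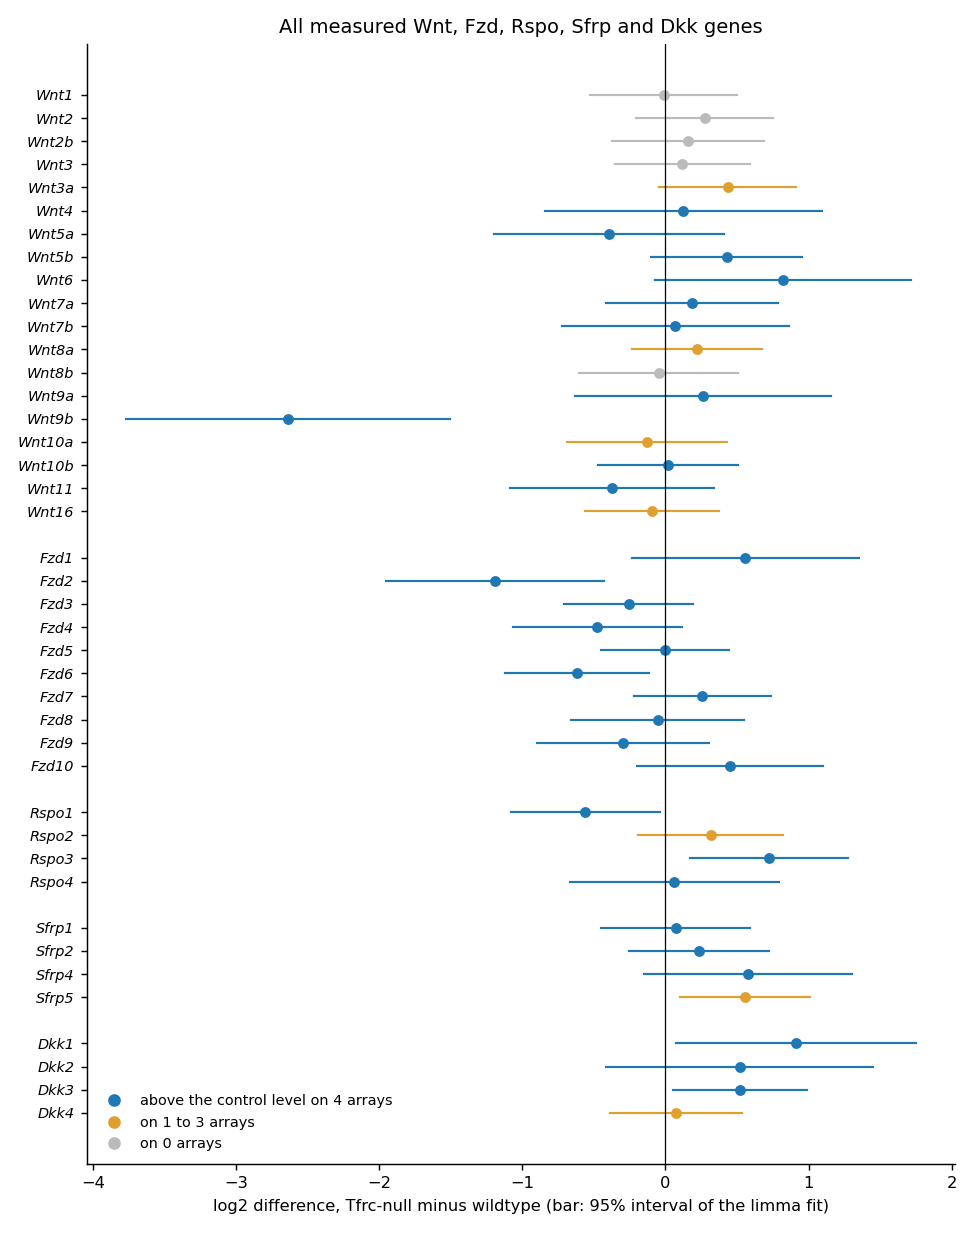
Log2 difference (labelled Tfrc-null minus wildtype) of each of the 41 genes by family, with the 95% interval of the limma fit; colours give the number of arrays on which the gene was above the control level. Wnt9b at -2.64 and Fzd2 at -1.19 lie furthest to the left, and all Sfrp and Dkk points lie to the right of 0.

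In total, 29 genes were above the control level on all 4 arrays. Another 7 were above it on some arrays (Wnt3a, Wnt8a, Wnt10a, Wnt16, Rspo2, Sfrp5 and Dkk4), and 5 on none (Wnt1, Wnt2, Wnt2b, Wnt3 and Wnt8b). The 10 Fzd genes were all in the first class, while only 10 of the 19 Wnt genes were. The other 9 Wnt ligands thus reached the control level or lower on at least 1 array, and differences between such values are not read as differences in expression. Fewer cells of one type and less RNA per cell cannot be told apart in sorted bulk samples.

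Wnt9b is the ligand that the stalk of the ureteric bud sends to nephron progenitors, and it is required in the mouse for them to form tubules. Its signal was 53.7 and 24.5 on the arrays labelled Tfrc-null, against 287 and 177 on the wildtype arrays. The groups did not overlap, and the higher of the arrays labelled Tfrc-null stood far below the lower of the wildtype arrays. The means were 39.1 ± 20.7 and 232 ± 77.7 (SD, n = 2 each), and the log2 difference of -2.64 (SE 0.45, adjusted p = 0.212) makes the level 6.22-fold lower in the cells labelled Tfrc-null. Folds are ratios of geometric means throughout, so they differ slightly from ratios of the printed means. The difference was -2.42 between the arrays numbered 1 and -2.85 between those numbered 2. A second Wnt9b probe set did not show it. That probe set read 9.11 and 9.98 on the arrays labelled Tfrc-null against 8.04 and 10.2 on the wildtype arrays, just above the control level, and the mean of both probe sets differed by -1.28 on the log2 scale.

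Wnt11, made at the bud tips, where it sustains the loop between the growth factor Gdnf and its receptor Ret, did not separate the groups. It read 53.3 and 64.8 on the arrays labelled Tfrc-null and 95.3 and 60.8 on the wildtype arrays. Wildtype replicate 1 alone was high, and the log2 difference was -0.37 (95% interval -1.08 to 0.34, adjusted p = 0.875). Wnt7b, the collecting duct ligand needed for the medulla, lay near the control level at 14.7 and 8.41 against 9.79 and 11.5, with a difference of 0.07 that changed sign with the arrays used. Wnt6, another ligand of bud epithelium, read 17.1 and 30.1 on the arrays labelled Tfrc-null and 10.6 and 15.6 on the wildtype arrays. Its groups did not overlap, at a log2 difference of 0.82 (SE 0.35, adjusted p = 0.662), which ranged from 0.41 to 1.23 when 1 array was left out. Its second probe set was above the control level on 1 array only. Of the 4 bud-derived ligands, then, 1 was lower without overlap (14.3% of all genes), 1 higher without overlap (20.6%), and 2 overlapped.

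Of the ligands known from stroma, Wnt5a, which acts mainly outside the beta-catenin branch, read 186 and 336 on the arrays labelled Tfrc-null and 321 and 336 on the wildtype arrays. Only labelled Tfrc-null replicate 1 was low, and the log2 difference was -0.39 (95% interval -1.20 to 0.41, adjusted p = 0.889). Its second probe set separated the groups, at 174 and 169 against 299.8 and 269, a log2 difference of -0.73 (adjusted p = 0.445 with each probe set tested on its own), and the next dimmer probe set did not, with a difference of 0.05. Wnt4, made by the aggregates that become nephrons and by medullary stroma, read 139 and 217 on the arrays labelled Tfrc-null and 117 and 217 on the wildtype arrays. Its difference of 0.12 (95% interval -0.84 to 1.09) was within the spread between replicates, and both Wnt4 probe sets overlapped between groups. Wnt2b, a ligand of renal stroma, did not exceed the control level on any array, with readings of 6.54 and 7.65 against 5.76 and 7.01. By the probe set used, neither Wnt4 nor Wnt5a separated the groups, whereas 34.9% of all genes did, and Wnt2b gave no signal to compare.

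Set against each other, the bud-derived ligands had a median log2 difference of -0.15 and the stromal ligands one of 0.12, a gap of -0.28. The stromal median takes in Wnt2b, whose difference is not read, and with the filter on low values, which drops Wnt2b, it was -0.14 and the gap -0.017. The mean log2 of the 4 bud-derived ligands minus that of the 3 stromal ligands was -0.93 and -1.71 on the arrays labelled Tfrc-null and -0.55 and -1.10 on the wildtype arrays. The groups overlapped on this measure, although the array labelled Tfrc-null lay below the wildtype array of the same number in both cases. Of the 3 stromal ligands in it, 2 had a signal above the control level. Without wildtype replicate 1 the gap was 0.28, and without labelled Tfrc-null replicate 2 it was 0.15, both in the other direction. With the stromal ligands reduced to Wnt2b and Wnt5a it was -0.03.

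Markers of the same cell types differed in the same direction throughout each list, which the ligands did not. All 9 bud and collecting duct markers had a lower mean log2 in the cells labelled Tfrc-null, 7 of them without overlap (14.3% of all genes). The median log2 difference was -0.79. Their summed intensity was 3132 and 3987 on the arrays labelled Tfrc-null and 7277 and 8051 on the wildtype arrays, and none was at or below the control level on any array. The differences were uneven within the list, at -3.47 for Ret, -2.02 for Calb1 and -1.80 for Gata3 but -0.69 for the epithelial cadherin Cdh1 and -0.45 for Krt8, and the Wnt9b difference of -2.64 lay between those of Ret and Calb1. All 10 stromal markers had a higher mean log2, 8 of them without overlap (20.6% of all genes). Their median difference was 0.75, with sums of 15698 and 14581 against 12255 and 9214. The part that the mixture of cell types has in the Wnt results was not tested.

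**Figure D2:**
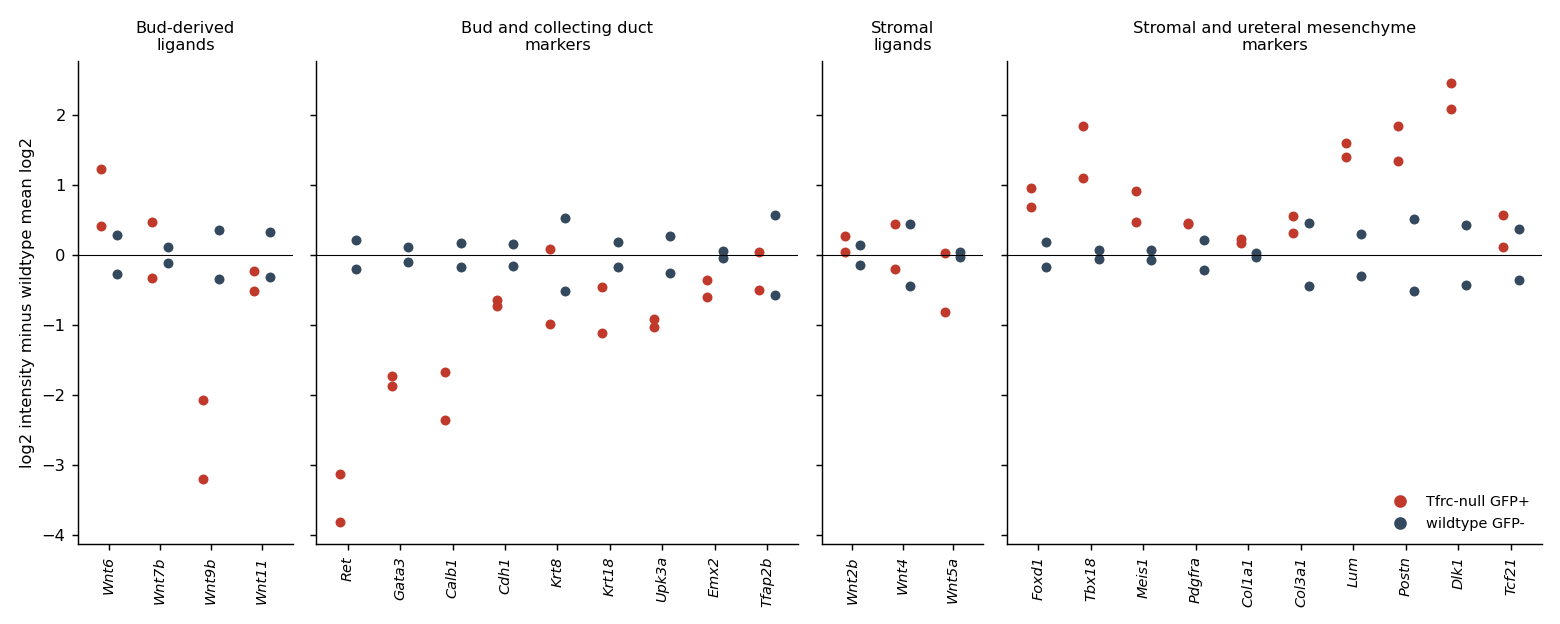
Log2 intensity of each array minus the wildtype mean log2, for bud-derived ligands, bud markers, stromal ligands and stromal markers; 1 point per array, labelled Tfrc-null left and wildtype right. Wnt9b lies among the lowest bud markers, while the points of Wnt11, Wnt7b and the stromal ligands overlap between groups.

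The other 12 Wnt genes had log2 differences from -0.13 (Wnt10a) to 0.43 (Wnt3a), and 0 of them had an unadjusted p under 0.05, as against 8.02% of all genes. Wnt5b, which shapes cartilage and acts largely outside the beta-catenin branch, separated the groups. It read 226 and 240.4 on the arrays labelled Tfrc-null and 154 and 196 on the wildtype arrays (log2 difference 0.43, SE 0.21, adjusted p = 0.719), and its second probe set also separated them, with a difference of 0.52. Wnt9a, a ligand of joints and limb, read 39.8 and 77.9 against 43.3 and 49.8, and the groups overlapped. Wnt7a and Wnt10b were above the control level on all arrays but read under 15 throughout, and both overlapped between the groups. Wnt5b and Wnt9a were picked out after their values were seen.

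Several Wnt genes lie next to each other in the mouse genome. Of the 41 genes, 4 pairs are neighbours among protein-coding genes in the GRCm38.p6 annotation, Wnt9b with Wnt3, Wnt6 with Wnt10a, Wnt3a with Wnt9a, and Wnt1 with Wnt10b. Wnt3 did not exceed the control level on any array, so no difference can be read for the neighbour of Wnt9b. Wnt10a differed by -0.13 where Wnt6 differed by 0.82, and Wnt9a by 0.26 where Wnt3a differed by 0.43.

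Among the receptors, by the brightest probe set, Fzd2 and Fzd6 stood lower and no other Frizzled gene had an unadjusted p under 0.05. Fzd2, a receptor for Wnt5a and other ligands, read 1271 and 747 on the arrays labelled Tfrc-null, against 2368 and 2086 on the wildtype arrays. The groups did not overlap, with means of 1009 ± 370.5 and 2227 ± 199.7 (SD, n = 2 each), a 2.28-fold lower level (log2 difference -1.19, SE 0.30, adjusted p = 0.372). Its 2 dimmer probe sets did not follow. They differed by 0.50 and 0.32 in the other direction, and the mean over all 3 differed by -0.12. Fzd6, known from planar polarity of hair and skin, read 144 and 125 on the arrays labelled Tfrc-null and 221 and 191 on the wildtype arrays. It was 1.53-fold lower without overlap (log2 difference -0.62, SE 0.20, adjusted p = 0.51), while its other 2 probe sets were above the control level on 2 arrays each and overlapped. The mean over its 3 probe sets differed by -0.067.

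The remaining 8 Frizzled genes had differences between -0.48 and 0.56. Fzd4 and Fzd8, which act together in bud branching in the mouse, had differences of -0.48 and -0.06. Fzd4 read 431 and 404 against 687 and 489 without overlap, but its second probe set was higher on average, with a difference of 0.30. Fzd7, a receptor of many progenitor cells, read 1479 and 1280.3 on the arrays labelled Tfrc-null and 1165 and 1139.7 on the wildtype arrays, and these groups did not overlap. Its difference of 0.26 (SE 0.19) was small beside its error. Fzd1 read 1727 and 1172 against 1201 and 779, which overlapped by 1 array. Its dimmer probe set separated the groups at 22.5 and 25.1 against 13.3 and 12.4, a log2 difference of 0.89. With each probe set tested on its own by limma, its unadjusted p was 0.0049 and its adjusted p 0.356. The differences of Fzd3, Fzd5, Fzd9 and Fzd10 were -0.26, -0.005, -0.30 and 0.45. Those of Fzd5 and Fzd9 overlapped between the groups.

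The R-spondins went in both directions. Rspo3 read 149 and 112 on the arrays labelled Tfrc-null, against 80.5 and 75.7 on the wildtype arrays. It was 1.65-fold higher without overlap (log2 difference 0.72, SE 0.22, adjusted p = 0.473), and its dimmer probe set read 18.3 and 18.2 against 11.8 and 7.36, the last of these below the control level of its array. Rspo1, which together with Rspo3 maintains nephron progenitors in the mouse, read 74.5 and 61.4 on the arrays labelled Tfrc-null and 107 and 93.2 on the wildtype arrays. This was a 1.47-fold lower level without overlap (log2 difference -0.56, SE 0.21, adjusted p = 0.577), measured by 1 probe set. Nephron progenitor markers had a median difference of -0.28, 5 of 6 with a lower mean log2 and 1 separating the groups (34.9% of all genes). Their summed intensities were 1628 and 1655 against 1726 and 2018, and their part in the Rspo1 value was not tested. Rspo2, a limb and lung R-spondin, read 9.62 and 8.66 against 6.70 and 8.03, with neither wildtype array above its control level, and Rspo4 read under 17 on every array with overlap.

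**Figure D3:**
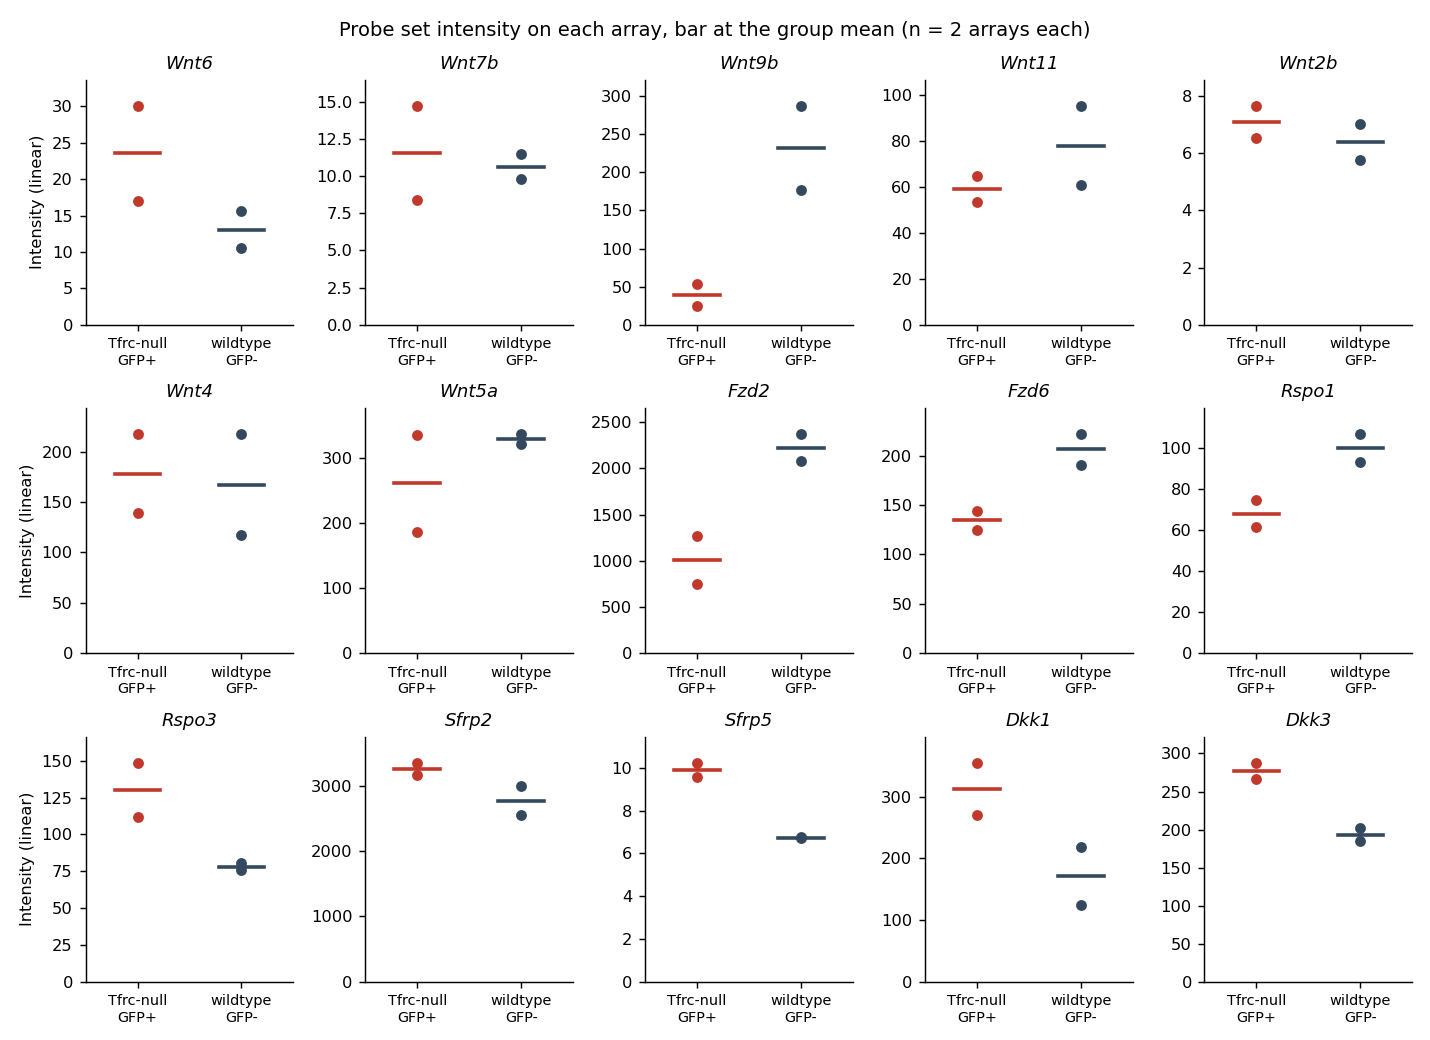
Intensity on each array (linear axis from 0) of the bud-derived ligands, the stromal ligands and the receptors and modulators chosen by rule. Points are arrays, bars are group means, labelled Tfrc-null left and wildtype right. Other genes named in the text are not shown. Wnt9b, Fzd2, Fzd6 and Rspo1 lie lower without overlap and Wnt6, Rspo3, Sfrp2, Sfrp5, Dkk1 and Dkk3 higher without overlap.

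Sfrp1, a Wnt-binding protein of renal stroma, gave different answers by probe set. Its brightest probe set, of 5, read 1514 and 1767 on the arrays labelled Tfrc-null and 1430 and 1698 on the wildtype arrays, a log2 difference of 0.07 with overlap. The second brightest read 1168 and 1059 on the arrays labelled Tfrc-null, against 330 and 332 on the wildtype arrays. The groups were far apart here and the arrays of each close together, a 3.36-fold higher level (log2 difference 1.75, SE 0.19, adjusted p = 0.144 with each probe set tested on its own). It had the smallest p of all 79 probe sets. Of the 3 dimmer probe sets, 2 also separated the groups, with differences of 1.24 and 0.85, and 1 overlapped, at 0.18. Sfrp1 was singled out after its values were seen, and which transcript ends the 5 probe sets read is not given in the files.

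The other Sfrp genes all had a higher mean. Sfrp2, which binds Wnt ligands and is made by forming nephrons, read 3351 and 3160 on the arrays labelled Tfrc-null and 2994 and 2558 on the wildtype arrays. The groups did not overlap, and the difference of 0.23 had a 95% interval of -0.25 to 0.72 (adjusted p = 0.896). Sfrp5 did not exceed the control level on either wildtype array, at 6.75 and 6.72, and read 10.2 and 9.56 on the arrays labelled Tfrc-null. Set against the control level of the wildtype arrays, its fold was at least 1.22, a bound that carries no error (adjusted p = 0.51 in limma's fit of the readings). All readings lay near the control level, and its second probe set never exceeded it. Sfrp4 read 12.1 and 17.6 against 8.23 and 11.6 without overlap, with a difference of 0.58 (SE 0.29).

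Dkk1, the inhibitor that binds Lrp5 and Lrp6 and is itself a target of beta-catenin in many tissues, read 355 and 271 on the arrays labelled Tfrc-null, against 219 and 124 on the wildtype arrays. Both arrays labelled Tfrc-null stood above both wildtype arrays, at means of 313 ± 59.7 and 172 ± 66.7 (SD, n = 2 each). The level was 1.88-fold higher (log2 difference 0.91, SE 0.33, adjusted p = 0.57), and the difference was 0.50 without wildtype replicate 2 and 1.32 without wildtype replicate 1. The second Dkk1 probe set also separated the groups, at 22.6 and 26.5 against 18.0 and 11.8. Dkk3, a divergent family member that does not act on the co-receptors as Dkk1 does, read 288 and 267 on the arrays labelled Tfrc-null and 184 and 202 on the wildtype arrays. It was 1.44-fold higher (log2 difference 0.52, SE 0.18, adjusted p = 0.55), with a difference of 0.65 in its second probe set. Dkk2, another ligand of the co-receptors, had a difference of 0.52 with overlap (61.3 and 44.5 against 50.4 and 26.4). Dkk4 read under 8 on every array.

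Several genes could be checked with more than 1 probe set. Of the 12 genes with at least 2 probe sets above the control level on all 4 arrays, 6 had all such probe sets differing in 1 direction (Dkk1, Dkk3, Fzd1, Sfrp1, Wnt4 and Wnt5b). The other 6 did not, and among them were Wnt9b and Fzd2, the 2 genes with the largest differences. Tested each on its own, 17 of the 79 probe sets (21.5%) had an unadjusted p under 0.05, beside 7.25% of all 34958 probe sets with 1 gene. These 17 belonged to 12 genes, and probe sets of the same gene are not independent. The Rspo2 probe set among them was above the control level on no array. At an adjusted p of 0.05, 0 passed.

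**Figure D4:**
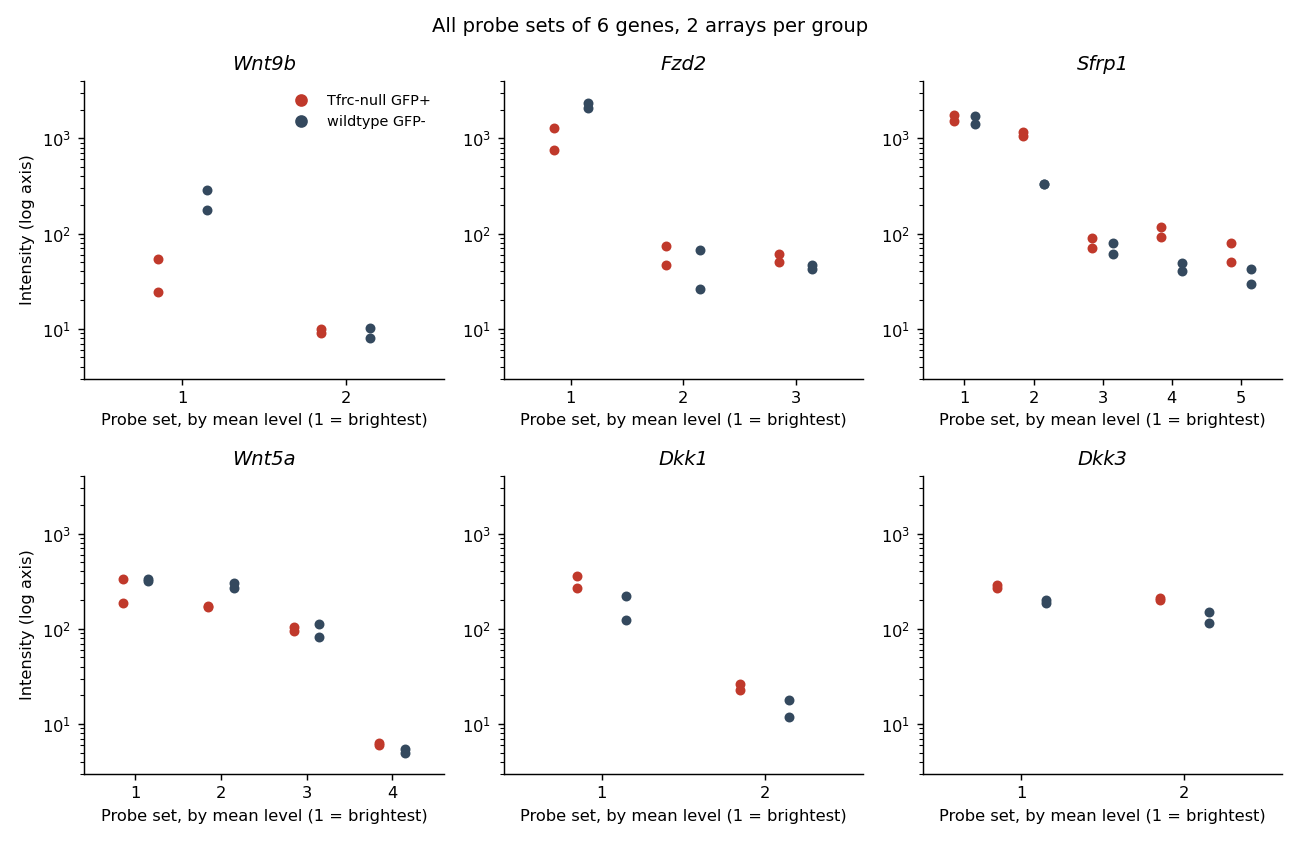
Intensity (log axis) of every probe set of Wnt9b, Fzd2, Sfrp1, Wnt5a, Dkk1 and Dkk3, ordered from the brightest; 1 point per array, labelled Tfrc-null left and wildtype right. Both probe sets of Dkk1 and of Dkk3 separate the groups in the same direction, whereas the brightest Wnt9b and Fzd2 probe sets and the second Wnt5a probe set lie lower without overlap and the others of these genes do not.

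In the rest of the pathway, 58 of 60 listed genes were measured, and 0 passed at an adjusted p of 0.05. At an unadjusted p under 0.05 there were 6 (10.3%, beside 8.02% of all genes), 3 higher and 3 lower. Their median difference was 0.01, against 0.04 for all genes. Of 3 genes of ligand secretion, Wls, the carrier that brings Wnt proteins to the cell surface, read 140 and 140 on the arrays labelled Tfrc-null, against 254 and 207 on the wildtype arrays. It was 1.64-fold lower without overlap (log2 difference -0.71, SE 0.20, adjusted p = 0.43). The acyltransferase gene Porcn and the deacylase gene Notum had differences of -0.16 and -0.0002. Notum lay near the control level, at 7.88 and 9.90 on the arrays labelled Tfrc-null and 7.88 and 9.91 on the wildtype arrays.

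Among 12 co-receptors and genes of receptor turnover, Rnf43, a ubiquitin ligase that removes Frizzled receptors, read 9.24 and 11.3 against 18.2 and 17.3 (log2 difference -0.79, SE 0.20, adjusted p = 0.372). Its relative Znrf3 had a difference of -0.45 and the Wnt5a receptor Ror1 one of 0.52, both without overlap and with an unadjusted p above 0.05. Of 7 other secreted modulators, Gpc3, a cell surface proteoglycan that binds Wnt ligands, read 2748 and 1696 on the arrays labelled Tfrc-null and 1228 and 711 on the wildtype arrays. It was 2.31-fold higher without overlap (log2 difference 1.21, SE 0.37, adjusted p = 0.481). Dkkl1 and Wif1, which had the next smallest p, had differences of 0.31 and -0.21 and together exceeded the control level on 1 array, for Dkkl1.

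Of 10 cytoplasmic genes, 0 had an unadjusted p under 0.05, and beta-catenin itself (Ctnnb1) read 6599 and 6285 against 6424 and 6551. Dvl2, Dvl1 and Dvl3, the Dishevelled adaptors, had differences of 0.36, 0.22 and 0.23. Of 7 nuclear genes, 0 had an unadjusted p under 0.05, with Pygo1, Bcl9l and Lef1 at 0.36, -0.45 and 0.20. Lef1, a DNA-binding partner of beta-catenin, read 911 and 775 against 733 and 732.

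Feedback targets, which beta-catenin signalling turns on and which then damp or report it, had a median difference of 0.22 over 8 genes, 5 with a higher and 3 with a lower mean log2. Nkd1, a Dishevelled-binding inhibitor, read 121 and 161 on the arrays labelled Tfrc-null, against 77.5 and 81.9 on the wildtype arrays. It was 1.75-fold higher without overlap (log2 difference 0.81, SE 0.22, adjusted p = 0.409). Sp5, Apcdd1 and Nkd2 differed by 0.67, 0.38 and 0.33 and stood higher without overlap, and Myc, Tnfrsf19 and Ccnd1 by -0.29, -0.26 and -0.21 and stood lower without overlap. In this list 4 of 8 genes were thus higher without overlap (20.6% of all genes) and 3 lower (14.3%). Only Nkd1 had an unadjusted p under 0.05 in limma's fit (8.02% of all genes). Axin2, the most widely used reporter gene of the pathway, read 384 and 342 against 378 and 302 and overlapped. Of 11 planar polarity genes, 5 had a higher and 6 a lower mean log2. Vangl1 was 1.69-fold higher and Celsr2 1.53-fold lower (adjusted p = 0.487 and 0.6), and Celsr3 had a difference of -0.55, all without overlap. Celsr3 lay near the control level, at 7.81 and 10.5 against 12.8 and 13.8. In this list 7 of 11 genes separated the groups (34.9% of all genes).

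**Figure D5:**
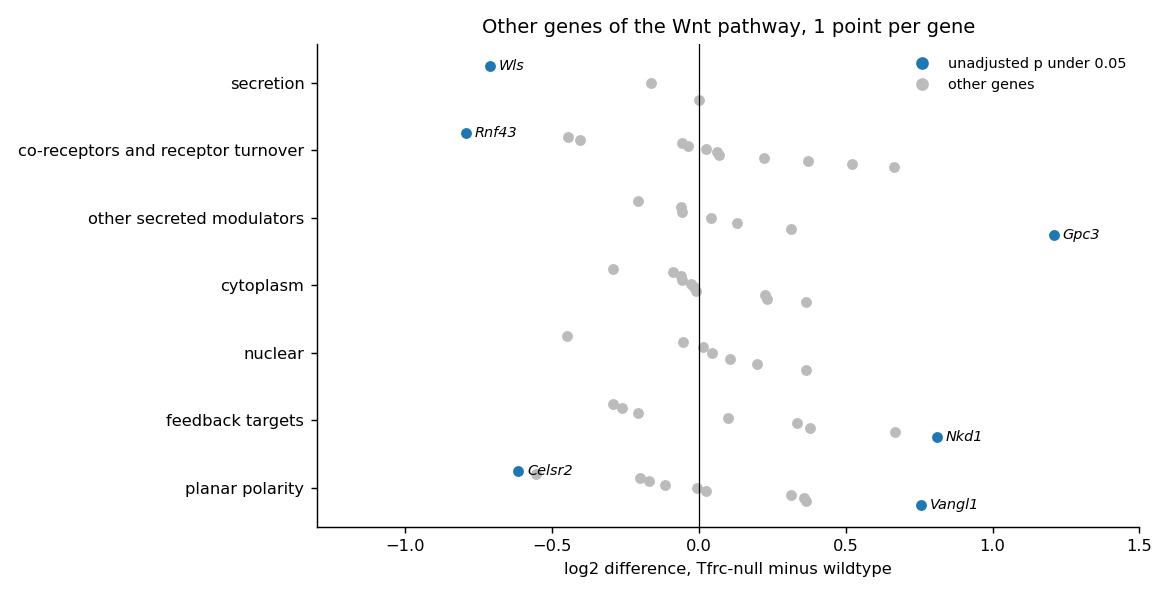
Log2 difference (labelled Tfrc-null minus wildtype) of 58 further genes of the Wnt pathway in 7 lists, 1 point per gene; blue points and names mark an unadjusted p under 0.05. Gpc3, Nkd1 and Vangl1 lie to the right and Wls, Rnf43 and Celsr2 to the left, and the cytoplasmic and nuclear lists hold no such gene.

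Of the other cell types that the sorted populations could hold, the erythroid markers summed to 76.0 and 47.0 on the arrays labelled Tfrc-null and 611 and 1915 on the wildtype arrays. Of these markers, 5 of 5 were lower without overlap (14.3% of all genes), with Epb42 never above the control level. Their median difference was -1.63. Endothelial markers summed to 1899 and 1317 against 2658 and 1883, with 3 of 6 lower without overlap (14.3% of all genes). All 6 had a lower mean log2, with a median difference of -0.79. Early nephron markers summed to 6718 and 7969 against 7856 and 9314, macrophage markers to 5346 and 5970 against 4083 and 5786, adrenal and gonad markers to 149 and 157 against 97.0 and 105, and nerve markers to 76.9 and 112 against 123 and 186. A sum weighs bright probe sets most, and single markers could go the other way, as did Ptprc (-0.73) among macrophage, Nr5a1 (-0.56) among adrenal and gonad and Sox10 (0.63) among nerve markers. The median differences of the macrophage, adrenal and gonad, and nerve lists were 0.24, 0.07 and -0.46, and that of the early nephron list was -0.09. The part of these cells in the results was not tested.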

How the data were processed

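The 4 samples were hybridised to Affymetrix mouse arrays with RNA amplified from 50 ng of total RNA per the labels' protocols. The authors deposited probe set intensity values on a linear scale, made with RMA per the submitters' processing notes (version and settings not given in the sources used here). This method equalises the arrays, so a shift shared by most genes would be removed. All 45101 probe sets were log2-transformed and not normalised again. Of these, 34958 were annotated to 1 gene, 932 to several and 9211 to none. Symbols were updated by Entrez identifier in a RefSeq table (18033 of 18194 genes found). The brightest probe set represented a gene.

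The test was limma's moderated linear model (version 3.58.1, R 4.3.3), unfiltered and without a block. P-values were adjusted by Benjamini-Hochberg across the 18194 genes and called at 0.05. The smallest two-sided p of an exact permutation test in this design is 0.333. Arrays are labelled biological replicates but no animal is named, so p-values measure the spread between these samples. Where both arrays of 1 group lay at or below the control level, a fold is a lower bound against that level. The fit was also run on simulated data in which every gene had the same spread. That run checked that large known differences were recovered on average, and not the error rate where spreads differ between genes.

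Values were given for every bud-derived and stromal ligand, members with an unadjusted p under 0.05, members 2-fold apart without overlap and the brightest member of each family, and for up to 3 genes of each pathway list by p; other genes named were chosen after their values were seen. The 41 genes and the lists were chosen with earlier results of these data known. Bud-derived ligands were Wnt6, Wnt7b, Wnt9b and Wnt11, and stromal ligands Wnt2b, Wnt4 and Wnt5a. Alternatives were the mean of all probe sets, no cross-hybridising probe sets, a filter on low values, an offset of 16, quantile normalization, an intensity trend, a replicate block and leaving out each array; testing each probe set on its own was added after seeing the data.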

Additional observations from a re-analysis of the deposited data

How the results depend on the processing

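Of 164 values of the 15 genes chosen by rule under 11 alternatives, 159 kept their direction. Direction could not change with the intensity trend, the replicate block, the filter or no cross-hybridising probe sets, which left these differences as they were. The same holds for the mean of all probe sets where a gene had only 1. For genes whose groups did not overlap, neither leaving out an array nor the offset could reverse the direction. The count of 159 therefore overstates how far direction was tested, and some differences came close to 0. With the mean of all probe sets Fzd2 differed by -0.12, Fzd6 by -0.067 and Sfrp5 by 0.20, and with the offset Sfrp5 by 0.19 and Wnt6 by 0.43. The 5 that reversed were Wnt5a (0.031) and Wnt7b (-0.33) without labelled Tfrc-null replicate 1, Wnt4 without labelled Tfrc-null replicate 2 (-0.20), and Wnt4 (-0.32) and Wnt7b (-0.044) without wildtype replicate 1. Leaving out an array gave -0.82 to 0.031 for Wnt5a, -0.32 to 0.57 for Wnt4, -0.33 to 0.47 for Wnt7b, 0.41 to 1.23 for Wnt6, -0.70 to -0.049 for Wnt11 and 0.12 to 0.35 for Sfrp2. The adjusted p of Wnt9b ranged from 0.0949 to 0.953. In every setting 0 members passed at an adjusted p of 0.05; over all genes, 1 passed with the mean of all probe sets, 2 with an intensity trend and 2 with the replicate block. Members 2-fold apart without overlap numbered 1 with the mean of all probe sets and 2 to 3 when an array was left out. The number with an unadjusted p under 0.05 was 3 to 5 when an array was left out and 15 with the replicate block, where the share of all genes was 14.8%. The difference of replicate 1 from 2 correlated at 0.512 across genes between the groups, so arrays of the same number shared part of their difference in these data. The labels do not say that a number marks a shared animal or batch, and with 2 numbers the pairing remains a hint from the data. The median difference of all members was 0.10 without cross-hybridising probe sets and with the filter, which kept 34 of them, 0.046 with the offset and 0.11 after quantile normalization. It was 0.046 to 0.18 leaving out an array. The median of the bud-derived ligands was -0.28 to -0.047, that of the stromal ligands -0.32 to 0.30, and the gap between them -0.56 to 0.28, so the gap has no settled direction. The cause of these shifts was not tested. No single difference was read for the 5 genes above the control level on no array, but the counts and medians of the main fit include them. Wnt2 is among the 14 genes higher without overlap, and Wnt3 sets the median of 0.12.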
